A study of Mus musculus with 19 samples.

Results

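The tumour suppressor p53 is a transcription factor, and 10 of its well-known mouse target genes were followed by name: Cdkn1a, Ccng1, Mdm2, Bax, Bbc3, Pmaip1, Perp, Trp53inp1, Sesn2 and Phlda3. A gene's level was the mean log2 intensity of the probe sets annotated to that gene alone. Of the 10 genes, 9 were measured, by 4 probe sets (Perp) to 13 probe sets (Mdm2) each, among 15781 genes in all, and Bax is not analysed here. RNA was profiled on 19 mouse exon arrays of sorted bone marrow progenitors. The GMP arrays (granulocyte-monocyte progenitors) comprised 4 of PR+/- Dnmt3a-/-, 2 of PR+/-, 3 of Dnmt3a-/- and 4 of wild-type (WT) cells, and the CMP arrays (common myeloid progenitors, from which GMP arise) comprised 3 of Dnmt3a-/- and 3 of WT cells. The labels do not spell out PR, which by the series title stands for PML-RARA, the fusion protein of acute promyelocytic leukaemia, and Dnmt3a encodes a DNA methyltransferase. The strain C57Bl/6J is stated for the WT and Dnmt3a-/- arrays. For the arrays with PR+/-, the labels give genotype and tissue, with GMP named in the title alone. Age, the promoter that drives PR, how Dnmt3a was inactivated and whether each array holds 1 mouse are not given in the sources used here. The arrays with PR+/- carry another style of label than the rest, so PR+/- and a separate array run cannot be told apart.

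In unstressed cells p53 is kept scarce by the ubiquitin ligase Mdm2, which is itself a p53 target and so closes a feedback loop. After DNA damage or oncogene activity p53 accumulates and raises genes that halt the cell cycle, repair DNA, buffer metabolic stress or start apoptosis. PML, one of the partners in the PML-RARA fusion, forms nuclear bodies at which p53 is modified. Perp encodes a tetraspan membrane protein that was found as an apoptosis-associated p53 target in mouse cells and also belongs to the desmosomes that join epithelial cells.

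The classic p53 binding element is a pair of half-sites of 10 bases each. RefSeq promoters of build GRCm38.p6, from 250 bases before to 50 after a start site, were given for 6 of the measured genes at 9 start sites and were searched for the p53 half-site, a palindromic motif that covers both strands in 1 pass. The half-site occurred at 3 of these 9 start sites, each of another gene, and in 8.4% of 32851 promoters of the same length. The matches are shown because Cdkn1a, Mdm2 and Ccng1 are textbook p53 targets whose levels are described here; capitals mark the half-site.
Cdkn1a, chr17:29090896-29090947, plus strand: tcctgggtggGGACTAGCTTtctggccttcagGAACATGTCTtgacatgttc
Mdm2, chr10:117710925-117710954, minus strand: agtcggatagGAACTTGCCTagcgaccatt
Ccng1, chr11:40755452-40755481, minus strand: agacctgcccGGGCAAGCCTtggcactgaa
The promoter at 1 Cdkn1a start site held 2 matches, the first beginning 73 bases before that site, while the other Cdkn1a promoter held none, and the Mdm2 and Ccng1 matches began 186 and 185 bases before theirs. The windows of Bbc3, Sesn2 and Phlda3 did not contain these letters. A match is a description of the sequence, and binding was not measured.

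Perp rose in both comparisons of GMP with and without PR, by 4.47 on the log2 scale with Dnmt3a present and by 2.86 without Dnmt3a, while no other member passed the test in either. Of all genes, 3.07% were called with Dnmt3a present and 1.24% without it. Outside PR, Trp53inp1 fell in WT GMP against WT CMP (4.3% of all genes called) and Bbc3 fell in Dnmt3a-/- GMP against Dnmt3a-/- CMP (10.1% called). Loss of Dnmt3a alone gave no call among the members in CMP (1.28% of all genes called) or in GMP (1.33% called). The values by array show these patterns for all 9 genes.

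**Figure D1:**
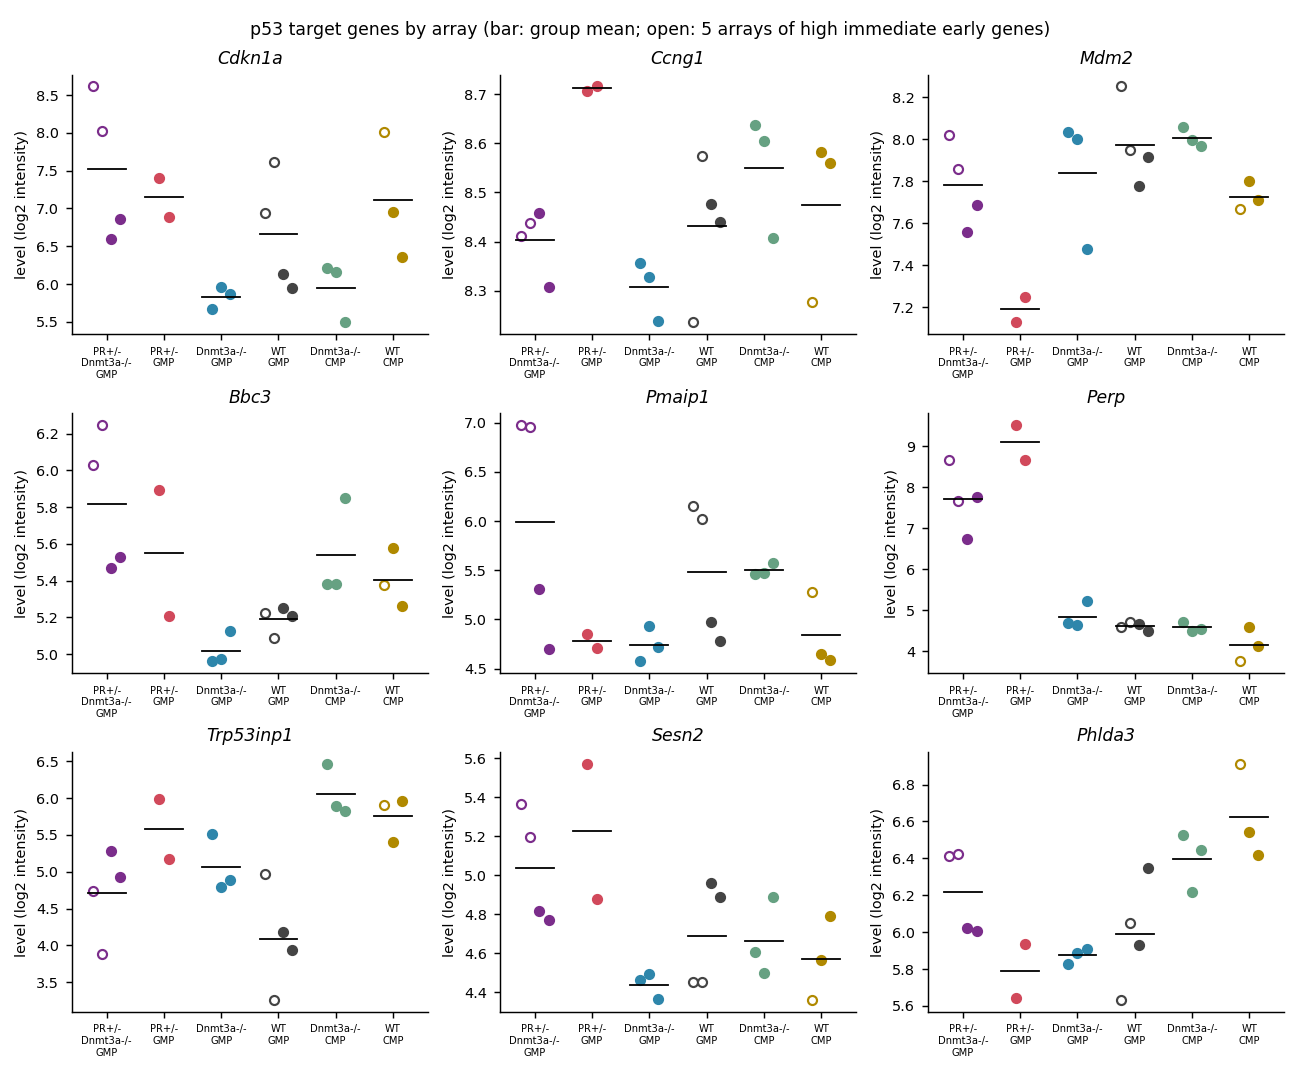
Levels of the 9 measured p53 target genes on each array, as mean log2 intensity over the gene's probe sets. Points are arrays, the horizontal bar is the group mean, and open symbols are the 5 arrays with high immediate early genes; Perp lies between 6.74 and 9.51 in all 6 arrays with PR+/- and between 3.76 and 5.22 in the other 13.

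The labels were checked by Dnmt3a itself, whose mean level was 6.09 in PR+/- Dnmt3a-/- GMP, 7.13 in PR+/- GMP, 6.13 in Dnmt3a-/- GMP, 7.44 in WT GMP, 6.42 in Dnmt3a-/- CMP and 7.46 in WT CMP. The progenitor genes (Kit, Cd34, Fcgr3, Mpo, Prtn3, Ctsg and Cebpa) had a mean level of 8.98 to 10.5 on every array. Some arrays stand apart. A list of 12 immediate early and heat shock genes, which react quickly to cell handling, had a mean level of 7.88 to 8.98 in 5 arrays and of 6.11 to 7.44 in the other 14. These 5 are PR+/- Dnmt3a-/- GMP replicates 1 and 2, WT GMP replicates 1 and 2 and WT CMP replicate 1. A pair of Y-linked genes averaged 2.54 to 2.91 in all 6 Dnmt3a-/- arrays without PR. The pair was also low in PR+/- Dnmt3a-/- GMP replicate 2 (3.12), WT GMP replicate 4 (3.25) and WT CMP replicate 3 (3.06). The other arrays of these groups had 6.75 to 7.25, and PR+/- GMP had 6.87 and 6.73. Since these are bulk populations, fewer cells of a type and less RNA per cell cannot be told apart.

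Cell cycle arrest is the task of Cdkn1a, which encodes the CDK inhibitor p21. Its level was 8.62, 8.02, 6.60 and 6.86 in PR+/- Dnmt3a-/- GMP, against 5.67, 5.96 and 5.87 in Dnmt3a-/- GMP. Each array with PR lay above each without it, but the difference of 1.69 ± 0.47 (SE) missed the threshold (limma adjusted p = 0.112). How many of all genes had groups without overlap was not counted. A lack of overlap, here and below, is therefore a description and not a test. In PR+/- GMP the level was 7.40 and 6.89, against 6.94, 7.62, 6.14 and 5.95 in WT GMP. These groups overlapped, with a difference of 0.48 ± 0.53 (adjusted p = 0.710). In CMP, Cdkn1a was 6.21, 6.16 and 5.49 without Dnmt3a and 8.02, 6.96 and 6.35 in WT, so that the groups did not overlap. Averaged over CMP and GMP, the difference of Dnmt3a-/- against WT was -0.99 ± 0.30 (limma adjusted p = 0.0689). With the Y-linked genes (low on all these Dnmt3a-/- arrays) as a covariate it was -0.26 (adjusted p = 0.734).

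Cdkn1a was high on the arrays with high immediate early genes. Within PR+/- Dnmt3a-/- GMP the 2 arrays with high immediate early genes had a mean Cdkn1a level of 8.32, against 6.73 in the other 2. In WT GMP these means were 7.28 and 6.04, and in WT CMP the single high array had 8.02, against 6.65 in the other 2. Without the 5 arrays the difference of PR+/- Dnmt3a-/- against Dnmt3a-/- GMP was 0.90 (adjusted p = 0.103), and that of PR+/- against WT GMP was 1.10 and passed (limma adjusted p = 0.0319). The averaged Dnmt3a-/- difference was -0.46 without them. Their part in these results beyond that was not tested.

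**Figure D2:**
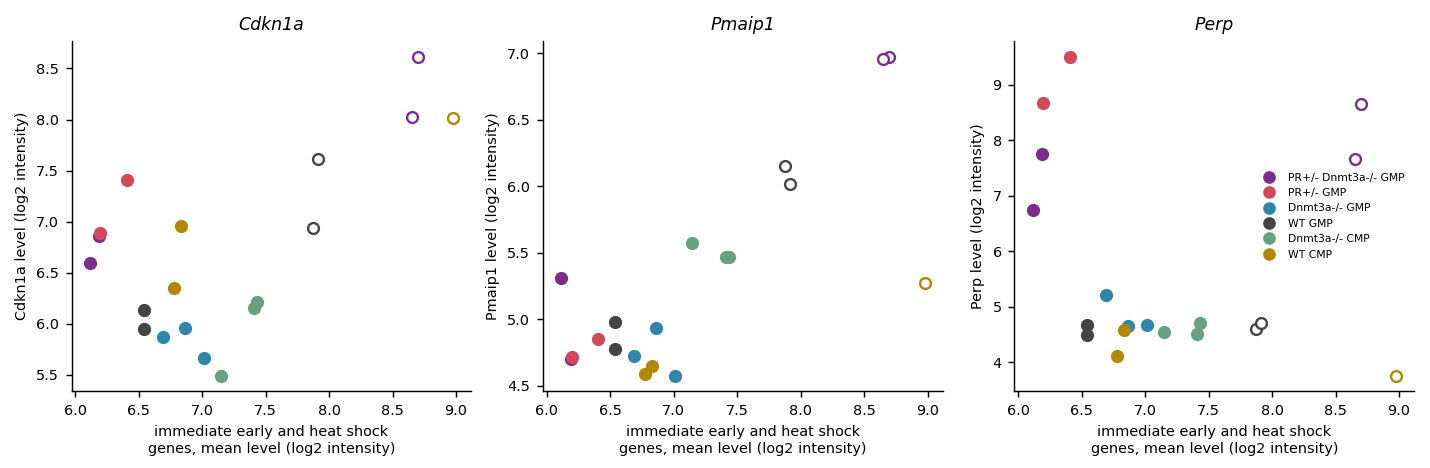
Levels of Cdkn1a, Pmaip1 and Perp (vertical axes, log2 intensity) against the mean level of 12 immediate early and heat shock genes (horizontal axes, log2 intensity), 1 point per array, with the 5 high arrays open. The open points of Cdkn1a (6.94 to 8.62) and Pmaip1 (5.27 to 6.98) lie high within their groups, while Perp is high with PR+/- at either end of the axis.

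Ccng1 encodes cyclin G1, a p53 target that feeds back on Mdm2. It was the steadiest member, with a range of 0.48 over all 19 arrays and a pooled SD within groups of 0.11. Its level was 8.71 and 8.72 in PR+/- GMP, against 8.24, 8.57, 8.48 and 8.44 in WT GMP. Both PR+/- arrays lay above all WT GMP arrays and all 9 probe sets differed in that direction, by 0.06 to 0.74, yet the difference of 0.28 ± 0.14 missed the threshold (limma adjusted p = 0.312). PR+/- Dnmt3a-/- GMP had 8.41, 8.44, 8.46 and 8.31, and all 9 probe sets lay below PR+/- GMP on average, with a difference of -0.31 ± 0.14 (adjusted p = 0.630).

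Mdm2, the negative regulator of p53, had its lowest 2 values of all 19 arrays in PR+/- GMP. The level there was 7.13 and 7.25, against 8.25, 7.95, 7.78 and 7.91 in WT GMP. The groups did not overlap, and all 13 probe sets lay lower in PR+/- GMP on average, by 0.06 to 1.96. These probe sets were read on the same arrays, and the share of all genes without overlap was not counted. The difference of -0.78 ± 0.20 fell just short of the threshold (limma adjusted p = 0.0501), and over 15 other settings the adjusted p was 0.0134 to 0.422, with 4 settings past the threshold. PR+/- Dnmt3a-/- GMP had 8.02, 7.86, 7.56 and 7.69, inside the range of 7.48 to 8.04 of Dnmt3a-/- GMP, and the difference was -0.06 ± 0.17 (adjusted p = 0.905). All 13 Mdm2 probe sets averaged higher in PR+/- Dnmt3a-/- GMP than in PR+/- GMP, where the gene differed by 0.59 ± 0.18 (adjusted p = 0.615). The test of whether the PR difference itself changed with Dnmt3a gave 0.73 ± 0.26 (limma adjusted p = 0.273).

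Apoptosis is represented by Bbc3 and Pmaip1, which encode the BH3-only proteins PUMA and NOXA, and by Perp. Bbc3 was 6.03, 6.25, 5.47 and 5.53 in PR+/- Dnmt3a-/- GMP, against 4.96, 4.97 and 5.12 in Dnmt3a-/- GMP. All 4 arrays with PR lay above the 3 without it, with a difference of 0.80 ± 0.20 (limma adjusted p = 0.0892). The 2 highest values are again the arrays with high immediate early genes. In PR+/- GMP Bbc3 was 5.89 and 5.21, overlapping the 5.22, 5.09, 5.25 and 5.21 of WT GMP. Between cell types, Bbc3 fell to those 4.96, 4.97 and 5.12 in Dnmt3a-/- GMP, against 5.38, 5.38 and 5.85 in Dnmt3a-/- CMP, a difference of -0.52 ± 0.15 that passed the test (limma adjusted p = 0.0424). Of its 8 probe sets 7 differed in that direction, and the call was lost in 12 of 16 other settings, among them leaving out any 1 of the 6 arrays.

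Pmaip1 differed widely within 2 groups. It had 6.98 and 6.96 in PR+/- Dnmt3a-/- GMP replicates 1 and 2, but 5.31 and 4.70 in replicates 3 and 4. PR+/- GMP had 4.85 and 4.71, and Dnmt3a-/- GMP had 4.58, 4.93 and 4.72. WT GMP replicates 1 and 2 had 6.15 and 6.02, and replicates 3 and 4 had 4.98 and 4.78. In PR+/- Dnmt3a-/- and in WT GMP, the high pair is the pair with high immediate early genes. Neither PR comparison passed, with differences of -0.70 ± 0.58 for PR+/- against WT (limma adjusted p = 0.592) and 1.24 ± 0.51 for PR+/- Dnmt3a-/- against Dnmt3a-/- (adjusted p = 0.274). Without the 5 arrays these differences were -0.10 and 0.26. In CMP, Pmaip1 was 5.46, 5.47 and 5.58 in Dnmt3a-/- cells, against 5.27, 4.65 and 4.59 in WT cells. Those groups did not overlap, and the difference of 0.67 ± 0.32 missed the threshold (limma adjusted p = 0.390). It was 0.88 and passed without the 5 arrays (limma adjusted p = 0.0122). The immediate early list was then at 6.83 and 6.77 in the remaining WT CMP arrays, below the 7.44, 7.41 and 7.15 of Dnmt3a-/- CMP. The part of that imbalance was not tested.

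Perp separated the arrays with PR from all others. Its level was 9.51 and 8.67 in PR+/- GMP, against 4.60, 4.71, 4.67 and 4.49 in WT GMP. This difference of 4.47 ± 0.39 passed the test (limma adjusted p = 0.000133). Perp was 8.66, 7.67, 6.74 and 7.75 in PR+/- Dnmt3a-/- GMP, against 4.68, 4.65 and 5.22 in Dnmt3a-/- GMP. That difference was 2.86 ± 0.34 (limma adjusted p = 0.00163). No fold is given, because no background level is used here and Perp without PR lay near the epithelial gene Krt5, which averaged 4.53 in Dnmt3a-/- GMP and 4.55 in WT GMP. In both comparisons each array with PR lay above each array without it, and the call held in all 15 other settings of the comparison with WT (4.05 to 4.92) and all 16 of the comparison with Dnmt3a-/- (2.40 to 3.18). The weakest was 2.40 without the 5 arrays (limma adjusted p = 0.0454). The setting that kept only genes above the median level adds no separate support. That median was 5.37 for means over all 19 arrays, and Perp reached it only on arrays with PR.

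Each of the 4 Perp probe sets differed between the groups on its own. They were 3.83 to 5.36 higher in PR+/- GMP than in WT GMP, and 2.14 to 3.63 higher in PR+/- Dnmt3a-/- GMP than in Dnmt3a-/- GMP, with no overlap between groups for any of the 4 in either comparison. Probe set 4758100 had the widest difference, at 9.77 and 8.99 in PR+/- GMP, against 4.38, 4.40, 3.83 and 3.47 in WT GMP. Probe set 4881165 had the narrowest and was at 5.31 in PR+/- Dnmt3a-/- GMP replicate 3, close to the 5.19 of Dnmt3a-/- GMP replicate 3. That 5.31 was below the 5.57 of WT GMP replicate 2, so this probe set did not separate all arrays with PR from all others. Replicate 3 was the lowest PR+/- Dnmt3a-/- array for each of the 4 probe sets.

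**Figure D3:**
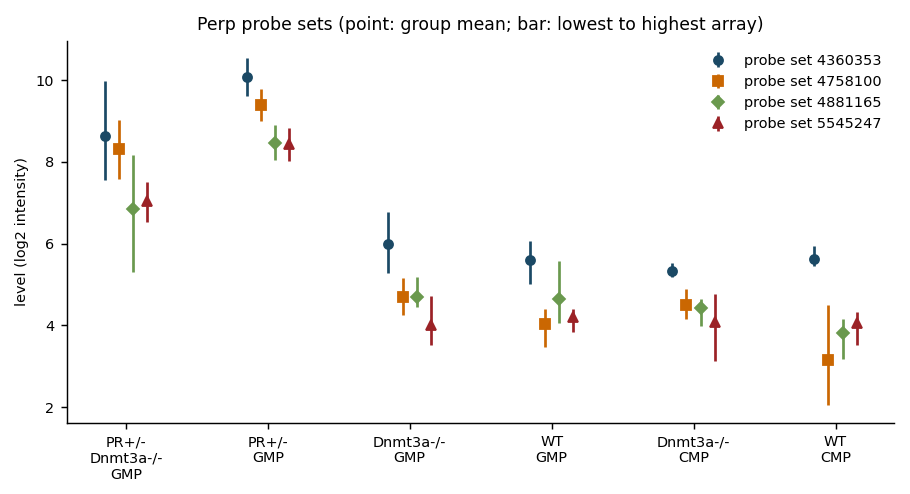
Levels of the 4 Perp probe sets (log2 intensity) in the 6 groups; points are group means and bars run from the lowest to the highest array. The 4 probe sets average 8.42 to 10.1 in PR+/- GMP and 6.84 to 8.63 in PR+/- Dnmt3a-/- GMP, above all 4 groups without PR.

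In order of group mean, Perp was 9.09 ± 0.60 in PR+/- GMP (SD, n = 2), 7.71 ± 0.79 in PR+/- Dnmt3a-/- GMP (n = 4), 4.85 ± 0.32 in Dnmt3a-/- GMP (n = 3), 4.62 ± 0.10 in WT GMP (n = 4), 4.59 ± 0.11 in Dnmt3a-/- CMP (n = 3) and 4.16 ± 0.41 in WT CMP (n = 3). Among the 4 groups without PR no difference passed the test. The differences were 0.23 ± 0.19 for Dnmt3a-/- against WT GMP, 0.43 ± 0.20 for Dnmt3a-/- against WT CMP, 0.26 ± 0.20 for Dnmt3a-/- GMP against Dnmt3a-/- CMP and 0.46 ± 0.19 for WT GMP against WT CMP (limma adjusted p = 0.514, 0.368, 0.545 and 0.233). All 4 PR+/- Dnmt3a-/- arrays lay below both PR+/- arrays, although the nearest values were 8.66 and 8.67. Their difference of -1.38 ± 0.49 missed the threshold (limma adjusted p = 0.620), with all 4 probe sets in that direction, by 1.06 to 1.63. The test of whether the PR difference in Perp depended on Dnmt3a gave -1.61 ± 0.52 (limma adjusted p = 0.235), and its adjusted p was 0.123 to 0.563 over 21 other settings.

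Perp is widely expressed in epithelia, so markers of epithelial and stromal cells were read beside it. The mean over 9 such genes was 5.21 to 5.40 in PR+/- Dnmt3a-/- GMP, 5.44 to 5.48 in PR+/- GMP, 4.99 to 5.20 in Dnmt3a-/- GMP and 5.06 to 5.23 in WT GMP. Of the 9, Pdgfrb was called higher in both PR comparisons, by 2.56 ± 0.24 with Dnmt3a and 2.35 ± 0.21 without it (limma adjusted p = 0.000185 and 0.000111), and Krt18 lower in PR+/- Dnmt3a-/- GMP against Dnmt3a-/- GMP, by -1.65 ± 0.35 (adjusted p = 0.0395). The epithelial markers Epcam and Krt5 averaged 3.53 and 4.36 in PR+/- Dnmt3a-/- GMP, 3.57 and 4.56 in PR+/- GMP, 3.35 and 4.53 in Dnmt3a-/- GMP, and 3.48 and 4.55 in WT GMP. Epcam, Krt5 and Krt14 gave no call in either PR comparison. The part of stromal cells in the Perp difference was not tested.

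Basophil and mast cell genes had a higher mean level with PR+/- where Dnmt3a was present. Where Dnmt3a was absent, their mean was 8.87 both with and without PR. The mean over 8 of them (Fcer1a, Ms4a2, Cpa3, Mcpt8, Prss34, Gata2, Il4 and Hdc) was 8.53 to 9.34 in PR+/- Dnmt3a-/- GMP and 9.10 to 9.11 in PR+/- GMP. It was 8.48 to 9.10 in Dnmt3a-/- GMP and 7.02 to 7.63 in WT GMP. Without PR, 3 of the 8 (Fcer1a, Gata2 and Ms4a2) were called higher in Dnmt3a-/- against WT GMP. In PR+/- against WT GMP 5 of the 8 were called higher and none lower, and in PR+/- Dnmt3a-/- against Dnmt3a-/- GMP 4 were higher and 1 lower. Dendritic cell genes had a mean level of 4.87 to 5.42 in PR+/- Dnmt3a-/- GMP, 4.68 to 5.34 in PR+/- GMP, 6.53 to 6.71 in Dnmt3a-/- GMP and 4.60 to 5.29 in WT GMP. In PR+/- Dnmt3a-/- against Dnmt3a-/- GMP 5 of the 8 (Cd74, Clec9a, H2-Aa, H2-Ab1 and H2-Eb1) were called lower, with a median difference of -1.74 over the list, and in PR+/- against WT GMP none was called. The part of either cell type in the Perp difference was not tested.

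Among the stress-response members, Trp53inp1 was called between cell types. It encodes a protein of autophagy and the stress response that also acts back on p53. Its level fell to 4.96, 3.26, 4.18 and 3.94 in WT GMP, against 5.90, 5.40 and 5.96 in WT CMP. The WT GMP mean of 4.09 was low, below the 4.55 of Krt5 in WT GMP, and no background level is used here. The groups did not overlap, all 6 probe sets lay lower in WT GMP, by 0.70 to 2.60, and the difference of -1.67 ± 0.33 passed the test (limma adjusted p = 0.0111). The call was lost without WT CMP replicate 1 (adjusted p = 0.0563) and when the compared groups were fitted alone (0.0566). In Dnmt3a-/- cells it was 5.51, 4.79 and 4.89 in GMP and 6.46, 5.89 and 5.83 in CMP, again without overlap, with a difference of -0.999 ± 0.35 (adjusted p = 0.101). With PR, Trp53inp1 was 5.99 and 5.18 in PR+/- GMP, above all 4 WT GMP arrays, and the difference of 1.50 ± 0.44 missed the threshold (limma adjusted p = 0.0885), passing in 5 of 14 other settings. PR+/- Dnmt3a-/- GMP had 4.74, 3.88, 5.28 and 4.93, overlapping Dnmt3a-/- GMP, and the test of whether the PR difference depended on Dnmt3a gave -1.85 ± 0.59 (limma adjusted p = 0.230).

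Sesn2 encodes sestrin 2, which restrains mTORC1 under stress. Its level was 5.36, 5.20, 4.82 and 4.77 in PR+/- Dnmt3a-/- GMP, against 4.46, 4.49 and 4.36 in Dnmt3a-/- GMP. The groups lay apart with a difference of 0.60 ± 0.21 (limma adjusted p = 0.199). The 2 highest values are the arrays with high immediate early genes, and the other 2 averaged 4.79. PR+/- GMP had 5.57 and 4.88, against 4.45, 4.45, 4.96 and 4.89 in WT GMP, with overlap and a difference of 0.54 ± 0.23 (adjusted p = 0.252).

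Phlda3 encodes a small pleckstrin homology domain protein that opposes AKT signalling. It was 5.63, 6.05, 5.93 and 6.35 in WT GMP, against 6.91, 6.55 and 6.42 in WT CMP. The groups did not overlap and all 5 probe sets lay lower in WT GMP, but the difference of -0.64 ± 0.17 fell just short (limma adjusted p = 0.0546), passing in 3 of 17 other settings. Dnmt3a-/- GMP had 5.83, 5.89 and 5.91, against 6.53, 6.22 and 6.45 in Dnmt3a-/- CMP, with a difference of -0.52 ± 0.18 (adjusted p = 0.0963). With PR it was 6.41, 6.42, 6.02 and 6.01 in PR+/- Dnmt3a-/- GMP and 5.64 and 5.94 in PR+/- GMP. The 6.41 and 6.42 are the arrays with high immediate early genes. Neither comparison with cells without PR passed (differences of 0.34 ± 0.18 and -0.20 ± 0.20, limma adjusted p = 0.387 and 0.680).

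**Figure D4:**
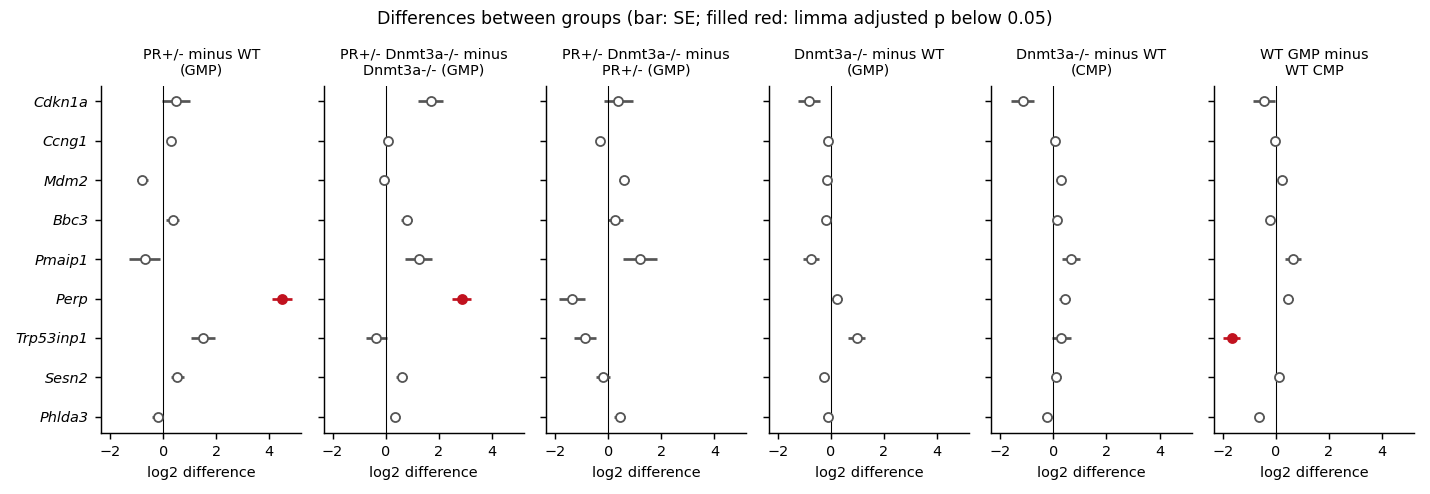
Differences between groups for the 9 members in 6 comparisons, on the log2 scale, the first-named group minus the second, with bars of 1 SE. Filled red points passed the test (limma adjusted p under 0.05): Perp in both comparisons with cells without PR (4.47 and 2.86), and Trp53inp1 in WT GMP minus WT CMP (-1.67).

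Both PR comparisons called 1 of 9 members higher and none lower, beside 3.07% of all genes in PR+/- against WT GMP and 1.24% in PR+/- Dnmt3a-/- against Dnmt3a-/- GMP. They held 4 and 5 of the 9 at an unadjusted limma p under 0.05, beside 17.4% and 15.1% of all genes. Whether the members exceed these shares was not tested. The median difference of the 9 was 0.36 and 0.60 in these comparisons, against 0.00 and 0.04 over all genes. Within PR+/- Dnmt3a-/- GMP the 2 arrays with high immediate early genes averaged above the other 2 by 0.04 (Ccng1) to 1.96 (Pmaip1). The exception was Trp53inp1, with a difference of -0.80. No Dnmt3a-/- GMP array had high immediate early genes, and the part of these arrays in the median was not tested. The 2 comparisons have no array in common but share 1 fit.

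Dnmt3a loss without PR gave none of 9 members in CMP, where 1.28% of all genes were called, none in GMP, where 1.33% were called, and none averaged over both, where 5.75% were called. At an unadjusted limma p under 0.05 these comparisons held 1, 2 and 3 of the 9. The shares of all genes at that threshold were 13.7%, 18.9% and 23.9%, so the member counts are near them. The median member difference was 0.13 in CMP and -0.14 in GMP. Whether the effect of Dnmt3a loss differed between cell types gave no member and 0% of all genes. At an unadjusted limma p under 0.05 it gave 1 member and 1083 genes (6.86%). That member was Pmaip1, whose genotype difference was -0.74 ± 0.30 in GMP and 0.67 ± 0.32 in CMP (interaction -1.40 ± 0.44, limma adjusted p = 0.499). The difference in GMP was -0.13 without the 5 arrays and -0.23 with the Y-linked covariate, and that in CMP was 0.88 and 1.11.

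Between cell types, 1 of 9 members was lower in WT GMP against WT CMP (Trp53inp1), where 4.3% of all genes were called, and 1 of 9 was lower in Dnmt3a-/- GMP against Dnmt3a-/- CMP (Bbc3), where 10.1% were called. A single call in 9 is near the background in the comparison without Dnmt3a. In WT cells, too, a single call is too few to set the members apart from all genes. The WT and the Dnmt3a-/- comparison of cell types held 3 and 4 of the 9 at an unadjusted limma p under 0.05, beside 16.3% and 20.9% of all genes. Between PR+/- Dnmt3a-/- and PR+/- GMP none of the members and 0% of all genes were called. At an unadjusted limma p under 0.05 there were 2 members (Mdm2 and Perp) and 1256 genes (7.96%). For the dependence of the PR difference on Dnmt3a, no member and 0.0317% of all genes were called. At an unadjusted limma p under 0.05 there were 4 members (Mdm2, Pmaip1, Perp and Trp53inp1) and 2209 genes (14.0%).

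Few other genes of the pathway were called with PR. Of 25 other p53 targets measured, Xpc, a damage sensor of nucleotide excision repair, was the 1 called higher in PR+/- against WT GMP and none was lower, a count near the 3.07% of all genes called. Xpc averaged 7.18 ± 0.18 in PR+/- GMP and 6.49 ± 0.12 in WT GMP (SD, n = 2 and 4), a difference of 0.69 ± 0.16 (limma adjusted p = 0.0370) that was lost in 10 of 15 other settings. In PR+/- Dnmt3a-/- against Dnmt3a-/- GMP none of the 25 was called, and the lowest p was that of Fas, a death receptor, at -0.57 ± 0.19 (adjusted p = 0.176). The median difference of the 25 was 0.09 and 0.02 in these comparisons.

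**Figure D5:**
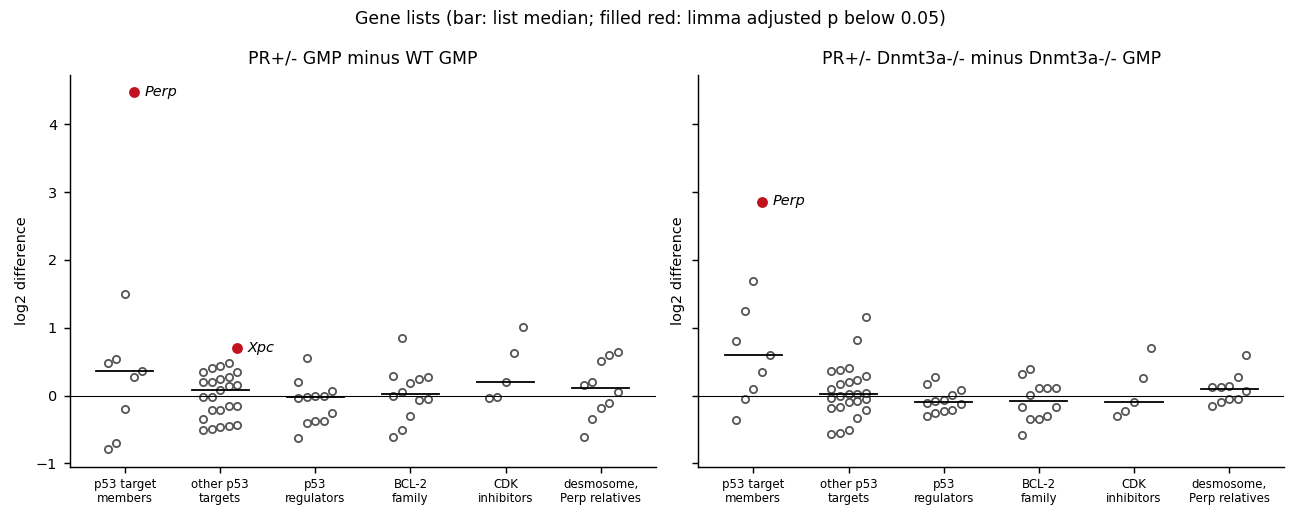
Differences on the log2 scale for the members and 5 further gene lists in PR+/- against WT GMP (left) and PR+/- Dnmt3a-/- against Dnmt3a-/- GMP (right); each point is a gene, the bar is the list median, and red marks a limma adjusted p under 0.05. Perp (4.47 and 2.86) and Xpc (0.69, left) are the genes called.

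Among 12 regulators of p53, 12 BCL-2 family genes, 5 CDK inhibitors and 10 desmosome genes and relatives of Perp, none was called in either PR comparison. The p53 gene Trp53 itself and Atr had no probe set annotated to them alone and were not measured. In PR+/- against WT GMP the lowest p values of these lists were those of Trp63 (-0.40 ± 0.16, adjusted p = 0.205), a p53 relative, Bmf (0.84 ± 0.22, adjusted p = 0.0569), a BH3-only gene, Cdkn2c (1.01 ± 0.31, adjusted p = 0.0991), which encodes the CDK inhibitor p18, and the armadillo gene Pkp4 (-0.61 ± 0.18, adjusted p = 0.0818). In PR+/- Dnmt3a-/- against Dnmt3a-/- GMP they were those of Trp63 (0.27 ± 0.14, adjusted p = 0.380), the apoptosis effector Bak1 (-0.58 ± 0.20, adjusted p = 0.192), Cdkn1b, which encodes p27 (0.70 ± 0.20, adjusted p = 0.126), and Emp1, a tetraspan relative (0.59 ± 0.18, adjusted p = 0.150). These p are limma's, as elsewhere. In PR+/- Dnmt3a-/- against PR+/- GMP no gene of the 5 lists was called.

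Between cell types, 4.3% of all genes were called in WT cells and 10.1% in Dnmt3a-/- cells, and the counts of these lists stand beside those shares. Dram1, a p53-induced gene of autophagy, rose in WT GMP to 7.60, 7.11, 7.91 and 7.95, against 5.44, 6.59 and 6.79 in WT CMP, a difference of 1.37 ± 0.29 (limma adjusted p = 0.0165). In Dnmt3a-/- GMP it was 8.28, 8.24 and 8.26, against 6.56, 6.33 and 5.98 in Dnmt3a-/- CMP, a difference of 1.97 ± 0.31 (limma adjusted p = 0.00109). It was the 1 of 25 other targets called in WT cells, a share near that of all genes, while without Dnmt3a Dram1 was called higher, and Zmat3 (-0.84 ± 0.15), Sesn1 (-0.69 ± 0.15) and Ercc5 (-0.59 ± 0.14) were called lower. Of the 12 BCL-2 family genes, the survival gene Bcl2 was lower in Dnmt3a-/- GMP against Dnmt3a-/- CMP (-0.83 ± 0.19), and Bak1 (0.72 ± 0.20), Bid (0.58 ± 0.15) and Bcl2l2 (0.53 ± 0.16) were higher. Cdkn1b (-0.79 ± 0.17) and Emp1 (-1.14 ± 0.17) were the single calls, both lower, of their lists. Emp1 and Zmat3 averaged 3.74 and 3.89 in Dnmt3a-/- GMP, low levels below the 4.53 of Krt5 in Dnmt3a-/- GMP. None of the regulators was called between cell types. Calls were lost in 5 of 17 other settings for Dram1 in WT cells and, in Dnmt3a-/- cells, in 10 of 16 for Bcl2l2, 7 of 16 for Bak1, 5 of 16 each for Bid and Ercc5, 3 of 16 for Bcl2, 2 of 16 for Sesn1 and 1 of 15 for Zmat3. Dendritic cell and megakaryocyte genes were called lower in GMP in the same comparisons, 6 of 8 and 4 of 7 in WT cells and 7 of 8 and 6 of 7 in Dnmt3a-/- cells. So were 4 of 6 erythroid genes (Car2, Epor, Gata1 and Klf1) in both, with Tfrc higher in Dnmt3a-/- cells. Of 8 basophil and mast cell genes, 5 were called higher in WT cells and 6 in Dnmt3a-/- cells, with Gata2 lower in both. The part of these cell types in these results and in those of Trp53inp1 and Bbc3 was not tested.

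Averaged over CMP and GMP, Dnmt3a loss called 5.75% of all genes and 4 genes of the further lists, a share near that background. Fas (0.53 ± 0.14), the p53 kinase gene Hipk2 (0.35 ± 0.09) and Emp3 (0.32 ± 0.08) were higher and Bcl2 (-0.49 ± 0.13) was lower, with limma adjusted p of 0.0461, 0.0392, 0.0438 and 0.0413. Each was lost in 14 to 16 of its 21 or 22 other settings. Fas averaged 4.12 in WT GMP and 4.09 in WT CMP, low levels below the 4.55 and 4.42 of Krt5 in these groups. In the same comparison 7 of 8 dendritic cell genes (median difference 1.99) and 7 of 7 megakaryocyte genes (median 1.25) were called higher, and the progenitor genes Cd34 and Mpo lower. The dendritic list had a mean level of 6.53 to 6.71 in Dnmt3a-/- GMP and 4.60 to 5.29 in WT GMP, and of 8.23 to 8.91 in Dnmt3a-/- CMP and 6.28 to 6.89 in WT CMP. The megakaryocyte list had 6.30 to 7.08 in Dnmt3a-/- GMP and 5.19 to 5.78 in WT GMP, and 8.16 to 8.50 in Dnmt3a-/- CMP and 6.58 to 6.77 in WT CMP. Their part in the Dnmt3a-/- differences of the members and lists was not tested. Bcl2 averaged 7.47 ± 0.17 in Dnmt3a-/- GMP and 8.07 ± 0.20 in WT GMP, and 8.30 ± 0.35 in Dnmt3a-/- CMP and 8.67 ± 0.15 in WT CMP.

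Which genes followed Perp most closely was read from Pearson's r over the 19 arrays among the 7890 brighter genes. The 5 highest were the gene annotated as Abp1 (r = 0.969), Gm2a (0.960), Atp6v0a1 (0.957), Pld3 (0.956) and Camk2b (0.953). Gm2a encodes the GM2 ganglioside activator of the lysosome, Atp6v0a1 a subunit of the vacuolar proton pump, Pld3 a lysosomal exonuclease and Camk2b a calcium-dependent kinase. Atp6v0a1, for example, averaged 9.37 in PR+/- Dnmt3a-/- GMP, 9.46 in PR+/- GMP, 7.67 in Dnmt3a-/- GMP, 7.15 in WT GMP, 7.12 in Dnmt3a-/- CMP and 6.97 in WT CMP. The r are descriptions of 19 arrays that fall into arrays with and without PR, a split that all these genes share. The choice of brighter genes, by a mean above 5.37 over all 19 arrays, depends on that split too. In the groups without PR, Abp1 averaged 4.29 to 5.03 and Camk2b 4.93 to 5.04, so both were admitted through the arrays with PR.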

How the data were processed

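The authors deposited a linear intensity for each of 194293 probe sets on 19 arrays. The submitters' processing notes name RMA, Partek and mm9 but give neither role nor version. Array medians were 53.0 to 56.8, and the values were used after log2 alone. Of the probe sets, 179496 carry 1 gene symbol, 1328 several and 13469 none. Symbols were updated through a RefSeq table of GRCm38.p6 (13727 found, 2039 updated, 37 kept). Gene values were means over probe sets, with no filter.

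Groups follow the labels and were compared with limma 3.58.1 in R 4.3.3 (lmFit and eBayes, two-sided, Benjamini-Hochberg over 15781 genes, threshold 0.05). Comparisons without PR used 1 fit of the 13 WT and Dnmt3a-/- arrays, PR+/- Dnmt3a-/- against PR+/- GMP its 6 arrays, and the other comparisons with PR the 13 GMP arrays. The labels do not state separate animals, so p-values measure the spread between these samples. On simulated data for 15781 genes, 64% and 97% of changes of 1 and 2 (log2) were recovered for Dnmt3a-/- against WT CMP, and 37% and 70% for PR+/- Dnmt3a-/- against PR+/- GMP. Deviations of PR+/- arrays that share a replicate number were hardly correlated (r = 0.0774 and 0.0169), and they were not treated as pairs. These r cannot decide whether pairs exist, because the deviations of the 2 PR+/- GMP arrays mirror each other. The members, the lists and the 5 arrays left out as an alternative were chosen with earlier results of these data known. All members are named, and of the other lists the genes past the threshold or else the one of lowest p. The number of arrays limits the precision.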

Additional observations from a re-analysis of the deposited data

How the results depend on the processing

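The alternatives were the median of probe sets, the brighter probe sets, the genes above the median level, quantile normalization, array weights, the compared groups alone or all arrays in 1 fit, leaving out the 5 arrays with high immediate early genes, a Y-linked covariate, adjacent title numbers as pairs, a replicate block and leaving out each array. Of 1840 recomputed gene values 1619 kept direction and side of the threshold, 121 lost the call, 32 gained one, 67 uncalled values changed sign, and 1 reversed: Pmaip1 in Dnmt3a-/- against WT averaged over cell types, -0.04 with all arrays and 0.38 without the 5 (limma adjusted p = 0.0435). The causes of these changes were not tested. Members called in Dnmt3a-/- against WT CMP numbered 0, and 1 without the 5 arrays. Averaged over cell types they numbered 0, and 1 with genes above the median level, 1 with array weights, 1 without the 5 arrays and 0 to 1 leaving out 1 array. In WT GMP against WT CMP they numbered 1, and 0 with only the compared groups, 2 with all arrays in 1 fit and 0 to 2 leaving out 1 array (0 without WT CMP replicate 1, 2 without WT GMP replicate 4). In Dnmt3a-/- GMP against Dnmt3a-/- CMP they numbered 1, and 0 with the median of probe sets, 0 with the brighter probe sets, 0 with quantile normalization, 4 with array weights, 3 with only the compared groups, 0 with all arrays in 1 fit, 4 without the 5 arrays, 0 with the Y-linked covariate and 0 leaving out any 1 array. In PR+/- against WT GMP they numbered 1, and 2 with the brighter probe sets, 2 with genes above the median level, 2 with quantile normalization, 3 with array weights, 3 with all arrays in 1 fit, 3 without the 5 arrays and 1 to 2 leaving out 1 array (2 without WT GMP replicate 1). In PR+/- Dnmt3a-/- against Dnmt3a-/- GMP they numbered 1, and 3 with array weights, 2 with all arrays in 1 fit and 1 to 3 leaving out 1 array (3 without PR+/- Dnmt3a-/- GMP replicate 3). The replicate block over PR+/- replicates 1 and 2, with 1 residual degree of freedom, called 0 members in PR+/- Dnmt3a-/- against PR+/- GMP, as without it, and gave -0.92 for Perp (limma adjusted p = 0.183). Counts over all genes, which set the shares called, ranged over the alternatives from 61 to 1064 for Dnmt3a-/- against WT CMP (202 in the reported fit), 49 to 1733 for Dnmt3a-/- against WT GMP (210), 161 to 3248 averaged (907), 258 to 742 for WT GMP against WT CMP (678), 968 to 3853 for Dnmt3a-/- GMP against Dnmt3a-/- CMP (1590), 43 to 1045 for PR+/- against WT GMP (484), 25 to 935 for PR+/- Dnmt3a-/- against Dnmt3a-/- GMP (195), 4 to 40 for the dependence of PR on Dnmt3a (5), 0 to 48 for genotype by cell type (0) and 0 to 21 for PR+/- Dnmt3a-/- against PR+/- GMP (0). With PR+/- GMP replicate 1 left out, 43 genes were called, in a fit that takes the spread of the remaining PR+/- array from the other groups.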
